A study of Homo sapiens with 4 samples.

Results

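Integrins are the receptors by which cells hold the extracellular matrix, and their subunits and cytoplasmic partners were followed in U87 cells after PELP1 silencing. The 41 genes, 21 integrin subunits and 20 proteins of focal adhesions, were chosen by symbol from the 23228 gene symbols counted. The list was drawn up when results of this same comparison were already known, among them the large falls of ITGB3 and ITGA10. The fold changes and calls below therefore describe these genes and lend no weight to the choice of them. All 41 symbols were found, and 35 had enough reads to be tested.

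U87 MG is an established human glioblastoma line. RNA was taken 72 hours after transfection with siRNA against PELP1 (2 libraries) or with a control siRNA (2 libraries), and all cells were grown in serum. PELP1 encodes a scaffold protein that joins nuclear receptors to chromatin regulators. Neither the siRNA sequences nor their number is given in the sources used here, 1 cell line was studied, and the libraries were run in duplicate, with nothing that places those of a group in separate cultures. P-values thus reflect the spread between these libraries alone, which may be technical.

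Reads counted in genes came to 18670162 to 22858988 per library. PELP1 stood at 15.2 and 17.7 CPM in the PELP1 siRNA libraries and at 74.0 and 78.1 CPM in the control siRNA libraries, where CPM is a count scaled to library size (TMM scaling). The PELP1 siRNA libraries differed more from each other than the control libraries did, with a chi-square per gene of 7.06 against 2.09. Of the glioma and astrocyte markers, VIM and CD44 were abundant (at least 37115 counts each in every library), whereas AQP4 was at 0 and GFAP held 24 to 35 counts. The summed level of the 7 markers in this list, nearly all VIM and CD44, was 7715 and 8115 CPM with PELP1 siRNA and 9577 and 9721 CPM with control siRNA. VIM, CD44 and NES were called lower and SLC1A3 higher, at 70.5 and 66.0 CPM against 47.0 and 50.4 CPM. Of the 8 immune markers, ITGAX held 133 to 262 counts and was called lower, ITGAL held 12 to 25 and CD14 5 to 14, while PTPRC had 1 or 2 and CD3E none. Their summed level was 7.97 and 8.64 CPM with PELP1 siRNA and 12.6 and 13.3 CPM with control siRNA. The platelet markers GP9 and PF4 were at 0 and ITGA2B had at most 4 counts. The 4 endothelial markers summed to 4.42 and 3.53 CPM against 2.94 and 3.66 CPM, with no gene called. Of 4 epithelial markers, summing to 1.73 and 1.58 CPM against 1.08 and 1.03 CPM, EPCAM was called higher at 33 and 29 counts against 13 and 20. Of 3 neuronal markers, summing to 49.3 and 51.1 CPM against 62.4 and 65.2 CPM, SNAP25 was called lower and RBFOX3 had at most 2 counts. SYT1 went the other way, at 18.3 and 19.4 CPM against 14.4 and 16.6 CPM, and was not called. The part of these marker levels in the results was not tested.

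An integrin is a heterodimer of 1 alpha and 1 beta subunit, and the alpha subunit largely sets the ligand. Talin and kindlin bind the beta tail and switch the receptor to its active form. Vinculin, filamin and alpha-actinin then tie it to actin, while the ILK-PINCH-parvin complex, focal adhesion kinase, paxillin and p130Cas pass signals on. In glioma these receptors are known for attachment and invasion along matrix.

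Several of these transcripts carry a 7-base word in the 3' UTR that also stands in the PELP1 mRNA, and the sites are shown because the carriers include ITGB3, the member with the largest fall. The words CTCAGTT and GCCTTGA had been picked out earlier on these same fold changes, so the comparison by word is a description. An siRNA can also lower transcripts that pair with its seed bases in their 3' UTR, which is background knowledge. The siRNA sequence is not known here, and the part of the words in any change was not tested. Sites are written 5' to 3' on the transcribed strand, from GENCODE transcripts on GRCh37, with the word in capitals. The first 2 lie in coding sequence of PELP1 on the minus strand of chromosome 17 (chr17:4594675-4594703 and chr17:4580054-4580082), and a further GCCTTGA of PELP1 whose flanks cross a splice junction is not shown. The others lie in 3' UTRs of ITGB3 (chr17:45390395-45390423, plus strand), CAV1 (chr7:116199468-116199496, plus), PARVA (chr11:12551808-12551836 and chr11:12552004-12552032, plus), ZYX (chr7:143087840-143087868, plus) and TNS1 (chr2:218666233-218666261, minus), which all fell, and of VCL (chr10:75878526-75878554, plus), TLN2 (chr15:63135032-63135060, plus), ITGA4 (chr2:182340902-182340930, plus), ITGA6 (chr2:173370580-173370608, plus) and PARVB, which were not called. PARVB holds the most sites of these genes, 2 of each word, and 1 is shown (chr22:44566431-44566459, plus).
PELP1: gtaatgcacgtCTCAGTTccatcaaaact
PELP1: ctagggtggatGCCTTGAgccctcagctc
ITGB3: aatggcaagatCTCAGTTcactgcaatct
CAV1: aagatcactttCTCAGTTttcataagtat
PARVA: aatgctgtcatCTCAGTTcgatattttac
PARVA: gttaatttaaaCTCAGTTatttttaatgc
ZYX: cctgcccccacCTCAGTTattgttttgat
TNS1: agcgctgtctgGCCTTGAacatgggctgg
VCL: tcctgcccttcCTCAGTTtaatccttcta
TLN2: ggagtttggttCTCAGTTatcacctggta
ITGA4: gaatattgattCTCAGTTgcaataaaact
ITGA6: gtgtttaaagtCTCAGTTtcttgcttggg
PARVB: gtcgctgctcaCTCAGTTatgggttgttc

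Of the 35 genes tested, 16 were called lower with PELP1 siRNA, 4 were called higher and 15 were not called, at an adjusted p under 0.05 (edgeR quasi-likelihood test, Benjamini-Hochberg over 13234 genes). Over all genes tested, 15.0% were called lower and 12.9% higher (1980 and 1712 genes). With scaling by total counts 1597 were lower and 2272 higher, and of the integrin and adhesion genes 15 were lower and 6 higher. The median log2 fold change was -0.22 over these genes and 0.00088 over all genes tested. Both PELP1 siRNA libraries lay below both control libraries in 23 genes and above them in 6, against 32.3% and 32.0% of all genes tested. The 23 include ITGB7, which passed the filter only through the control libraries, where it was higher, so its place there is partly set by the filter. In 10 of the 20 called genes the call held under all 13 alternative settings: ITGB3, ITGA10, ITGA2, ITGA3, TLN1, CAV1, PARVA, ZYX and TNS1 were lower and ITGB8 was higher. The other 10 lost the call without 1 of the libraries, and their values are given where each is described.

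**Figure D1:**
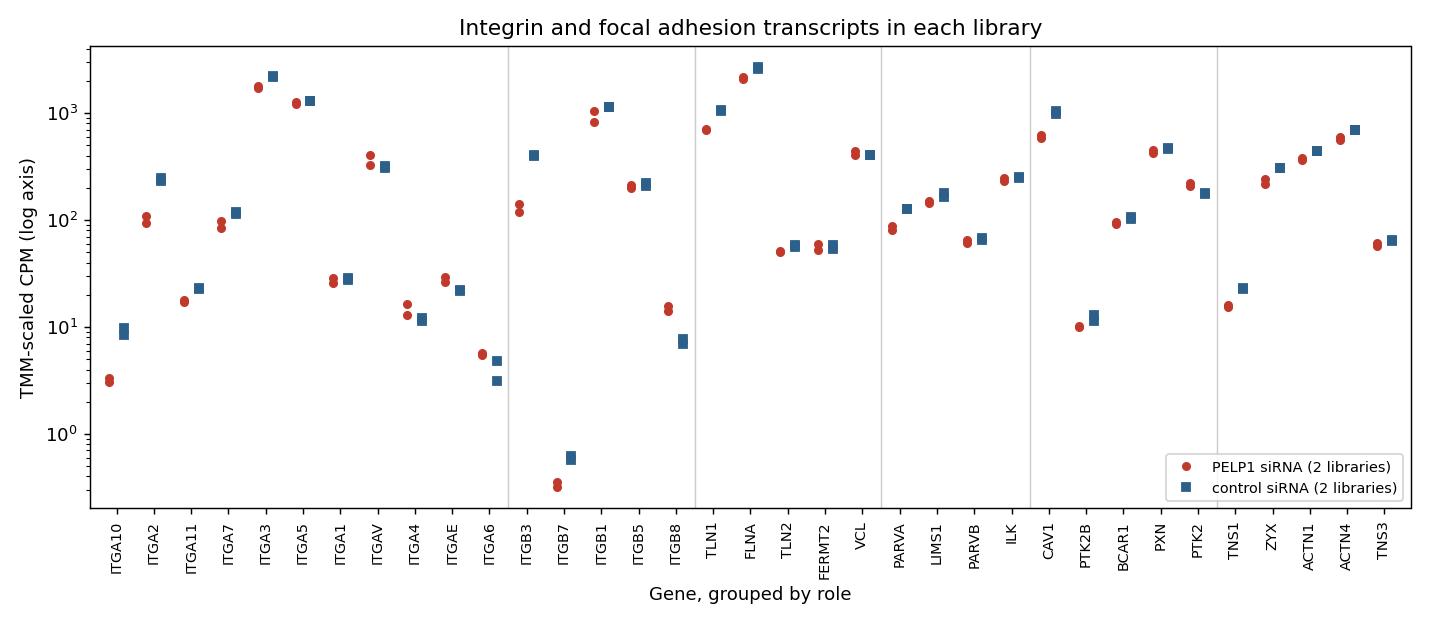
TMM-scaled CPM (log axis) of the 35 genes tested in each library, grouped by role along the x axis, with PELP1 siRNA libraries as circles and control siRNA libraries as squares. ITGB3, ITGA2 and ITGA10 stand apart downward and ITGB8 upward, while most other genes differ little next to the range of levels, from 0.316 CPM (ITGB7) to 2697 CPM (FLNA).

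Among the beta subunits ITGB3 fell to about a 0.32-fold level and ITGB8 rose 2.05-fold. ITGB3 (chr17:45331193-45391109 on GRCh37, plus strand) is the beta chain of receptors for vitronectin and other RGD ligands. It had 139.7 and 118 CPM in PELP1 siRNA libraries, against 405 and 401 CPM in control libraries. Every PELP1 siRNA value lay far below every control value, and the log2 fold change was -1.65 (SE 0.074, adjusted p = 1.00e-13). In GENCODE it shares 33.2% of its exon bases with other genes, mainly a gene on the same strand that has no symbol. HTSeq sets reads that fall on more than 1 gene of its annotation aside as ambiguous, so some reads of ITGB3 may be missing from its counts.

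ITGB8 (chr7:20370325-20455377, plus strand) pairs with the alpha-V subunit in a receptor known to activate latent TGF-beta. It held 15.6 and 14.2 CPM with PELP1 siRNA, against 6.86 and 7.68 CPM with control siRNA, from 307 and 270 against 133 and 172 counts. The groups did not overlap (log2 fold change 1.03, SE 0.13, adjusted p = 1.91e-06). This subunit remained scarce beside the others, at 0.98 ± 0.063 CPM per kilobase of exon in PELP1 siRNA libraries and 0.48 ± 0.038 in control libraries (SD, n = 2 each).

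ITGB1, the beta chain shared by most matrix receptors, had 1041 and 821 CPM in PELP1 siRNA libraries, against 1134 and 1147 CPM in control libraries. Both values were lower, but PELP1 siRNA library 2 lay well below library 1 (log2 fold change -0.29, SE 0.081, adjusted p = 0.0117). The adjusted p of ITGB1 was 0.0527 without control library 1, 0.0694 without control library 2 and 0.233 with DESeq2, and its log2 fold change was -0.47 without PELP1 siRNA library 1 and -0.13 without library 2. ITGB5, which also pairs with alpha-V, was not called: it had 201 and 214 CPM with PELP1 siRNA and 209 and 224 CPM with control siRNA, and its log2 fold change of -0.062 had a 95% interval of -0.20 to 0.075. Leaving out PELP1 siRNA library 2 gave -0.11 (adjusted p = 0.0424). ITGB7 was near the limit of detection, at 7 and 6 counts against 11 and 14, and its log2 fold change of -0.82 had an interval of -1.81 to 0.17. It passed the filter only through the control libraries, so the direction of its value is not independent of the filter. In GENCODE ITGB7 shares 42.3% of its exon bases with other genes, mainly ZNF740 on the opposite strand. ITGB2, ITGB4 and ITGB6 had at most 9 counts in any library and were not tested.

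The alpha-V subunit ITGAV did not fall with ITGB3. It had 407 and 328 CPM in PELP1 siRNA libraries, against 308 and 320 CPM in control libraries, so that PELP1 siRNA library 1 was the high one and library 2 stood just above the controls. On the log2 scale it rose by 0.23 (SE 0.077, adjusted p = 0.0284). The value was 0.068 (adjusted p = 0.169) without PELP1 siRNA library 1 and 0.38 without library 2, with adjusted p of 0.312 and 0.144 without control library 1 or 2 and 0.0624 with DESeq2. The other known partner of ITGB3, the platelet subunit ITGA2B, held at most 4 counts in a library.

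Levels of different genes are compared per kilobase of exon. Of the beta chains that pair with alpha-V other than ITGB1, ITGB3 made up 39.0% and 33.7% of the summed transcript level in PELP1 siRNA libraries, against 64.5% and 62.7% in control libraries. ITGB5 made up 58.9% and 64.4% against 35.0% and 36.7%, so the more abundant of the 2 differed between the groups. ITGB8 made up 1.96% and 1.84% against 0.49% and 0.54%. The summed level was 52.4 and 51.1 CPM per kilobase with PELP1 siRNA and 91.8 and 93.6 with control siRNA. With the longest transcript as the length, ITGB3 made up 33.3% and 28.4% against 58.7% and 56.8%, and the order within each group was the same.

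**Figure D2:**
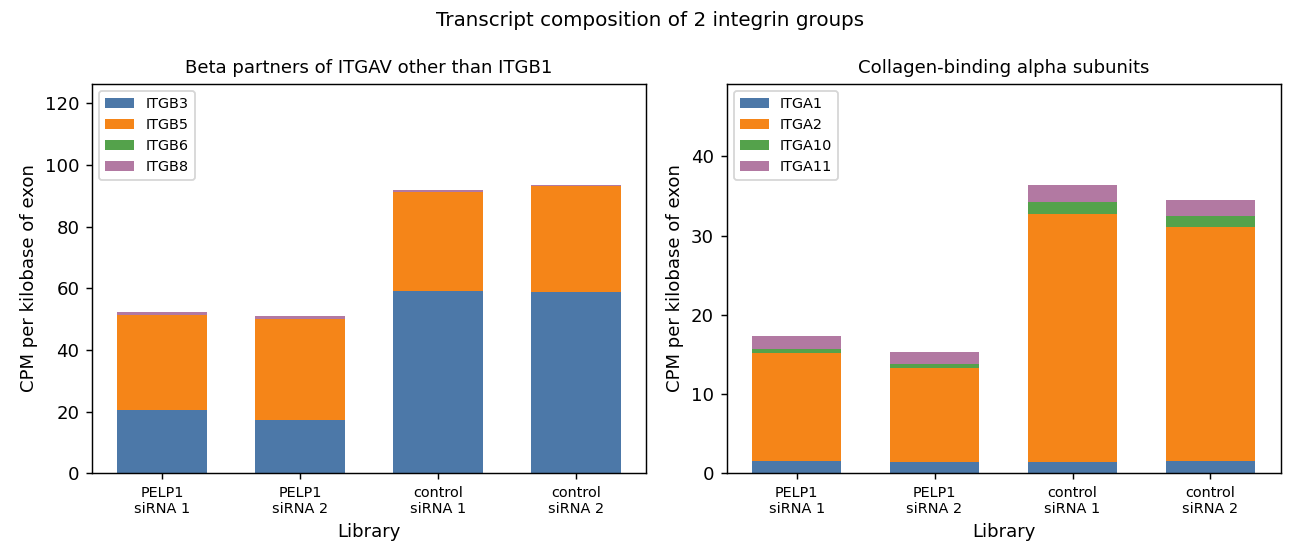
Stacked CPM per kilobase of exon (y axis from 0) in each library, for the beta chains that pair with ITGAV other than ITGB1 (left) and for the collagen-binding alpha chains (right). The ITGB3 block is 20.5 and 17.2 in PELP1 siRNA libraries and 59.3 and 58.7 in control libraries while the ITGB5 block lies between 30.8 and 34.4 in all 4, and ITGA2 makes up most of the right-hand bars.

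Of the 4 alpha subunits that bind collagen, 3 fell and ITGA1 was not called, where 15.0% of all genes tested were called lower. ITGA2 (chr5:52285170-52390609, plus strand), the alpha chain of a main collagen receptor, had 108 and 94.0 CPM with PELP1 siRNA, against 247 and 233 CPM with control siRNA. The groups lay far apart (log2 fold change -1.25, SE 0.073, adjusted p = 1.03e-11). ITGA10 (chr1:145524969-145543868, plus strand), a collagen receptor chain known from cartilage, had 3.30 and 3.06 CPM against 9.85 and 8.39 CPM, from 65 and 58 against 191 and 188 counts, and it fell with no overlap (log2 fold change -1.51, SE 0.17, adjusted p = 3.56e-07).

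ITGA11, a collagen receptor chain of fibroblasts, had 18.0 and 17.0 CPM in PELP1 siRNA libraries and 23.2 and 22.6 CPM in control libraries. It fell by 0.39 on the log2 scale (SE 0.10), with an adjusted p of 0.00582 that was 0.119 or 0.0763 without control library 1 or 2. ITGA1 had 28.6 and 25.5 CPM against 27.6 and 28.4 CPM, with overlapping groups and a log2 fold change of -0.048 (interval -0.25 to 0.15) that was 0.037 without PELP1 siRNA library 2. GENCODE gives ITGA1 13.2% of its exon bases in common with other genes. The summed level of the 4 collagen-binding chains was 17.4 and 15.3 CPM per kilobase with PELP1 siRNA, against 36.4 and 34.5 with control siRNA, and ITGA2 made up 78.6% and 77.7% of it against 85.7% and 85.6%.

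Of the laminin receptor chains, ITGA3 and ITGA7 fell and ITGA6 was not called, where 15.0% of all genes tested were called lower. ITGA3, the most abundant alpha subunit here, had 1729 and 1801 CPM in PELP1 siRNA libraries, against 2197 and 2194 CPM in control libraries (log2 fold change -0.31, SE 0.058, adjusted p = 2.52e-04). ITGA7, a laminin receptor chain of muscle, had 83.6 and 98.3 CPM against 119 and 115 CPM, with PELP1 siRNA library 1 the lowest (log2 fold change -0.37, adjusted p = 0.00111, and 0.0669 without control library 1). ITGA6 held 112 and 104 counts against 60 and 107, with control library 1 the low one, and its log2 fold change of 0.49 was not called (adjusted p = 0.0606). It was 0.0160 without control library 2, 0.0307 without PELP1 siRNA library 2 and 0.0471 with scaling by total counts.

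The fibronectin receptor chain ITGA5 was nearly level. It had 1213 and 1268 CPM with PELP1 siRNA, against 1292 and 1286 CPM with control siRNA, and its log2 fold change of -0.055 had a 95% interval of -0.18 to 0.066 (adjusted p = 0.518). ITGA4, which binds fibronectin and VCAM1, had 16.2 and 13.0 CPM against 11.3 and 12.0 CPM (log2 fold change 0.32, adjusted p = 0.0567, and 0.0468 with upper quartile scaling and 5.23e-04 without PELP1 siRNA library 2). ITGA4 shares 26.4% of its exon bases with other genes, mainly CERKL on the opposite strand. ITGAE, which pairs with ITGB7 on lymphocytes, rose to 26.5 and 29.4 CPM against 22.3 and 21.6 CPM (log2 fold change 0.35, adjusted p = 0.00984, and 0.113 or 0.186 without control library 1 or 2), and 7.65% of its exon bases are shared, mainly with HASPIN on the opposite strand. ITGA8 and ITGA9 had at most 9 counts and were not tested.

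**Figure D3:**
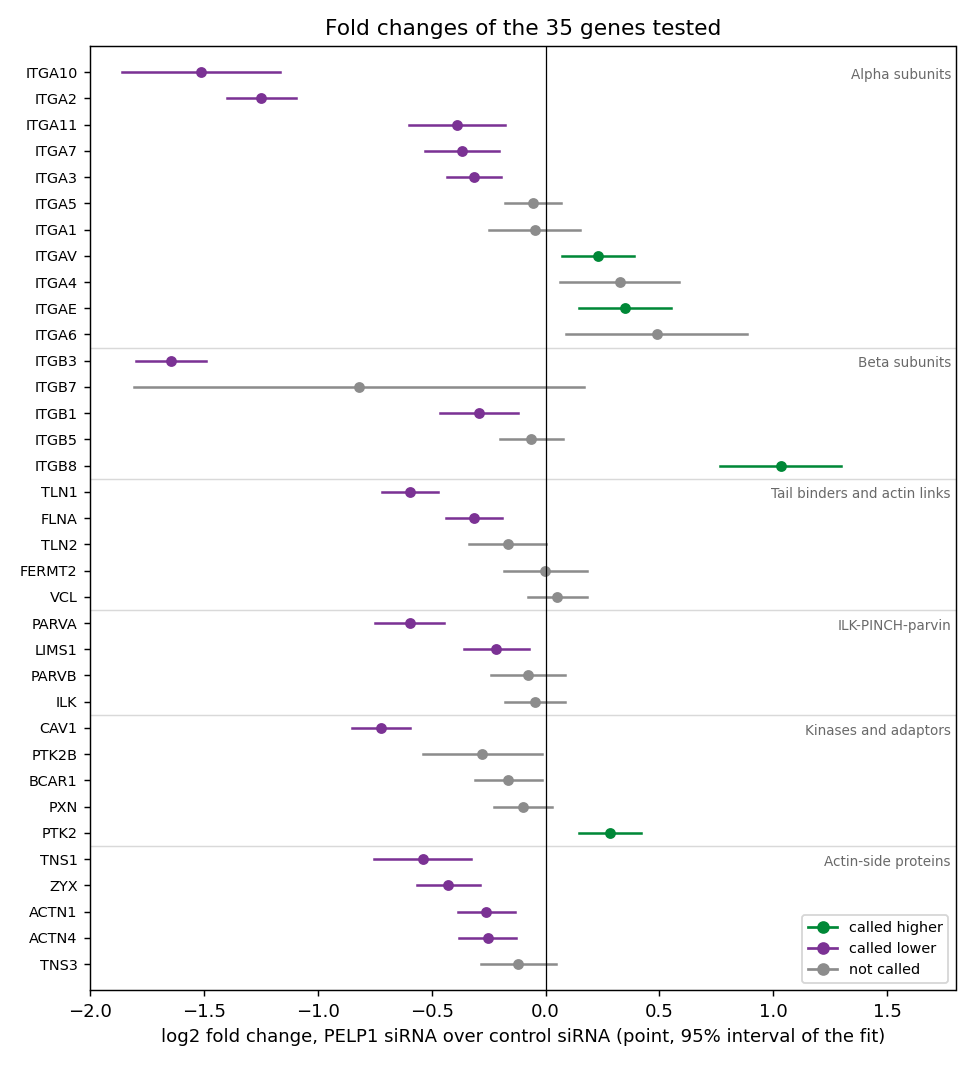
Log2 fold change of PELP1 siRNA over control siRNA (x axis, point) with the 95% interval of the edgeR fit (line) for the 35 genes tested, grouped by role and coloured by call. ITGB3 (-1.65), ITGA10 (-1.51) and ITGA2 (-1.25) lie farthest left, ITGB8 (1.03) farthest right, and all 5 actin-side proteins lie left of 0.

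Of the proteins that bind integrin tails or link them to actin, 2 fell and 3 were not called. The share called lower over all genes tested was 15.0%. TLN1 (chr9:35696945-35732192, minus strand), the main talin, had 687 and 705 CPM in PELP1 siRNA libraries, against 1062 and 1042 CPM in control libraries (log2 fold change -0.60, SE 0.059, adjusted p = 6.49e-08). The groups did not overlap, and the values within each lay close together. Its paralog TLN2 was not called, at 50.7 and 51.0 CPM against 56.2 and 57.8 CPM (log2 fold change -0.17, adjusted p = 0.131, or 0.0419 with PELP1 siRNA library 2 left out). FLNA, the actin cross-linker filamin A, had 2073 and 2165 CPM against 2697 and 2575 CPM (log2 fold change -0.31, adjusted p = 2.85e-04, and 0.0688 without control library 1). The kindlin FERMT2 had 59.9 and 51.9 CPM against 58.9 and 53.1 CPM, and its log2 fold change of -0.0011 had an interval of -0.18 to 0.18. The sign of that value turned with total count and upper quartile scaling. Vinculin (VCL) had 438 and 402 CPM against 403 and 406 CPM, with an interval of -0.078 to 0.18. Its value was -0.0077 without PELP1 siRNA library 1 and 0.12 (adjusted p = 0.00943) without library 2.

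Within the ILK-PINCH-parvin complex, which binds beta tails and actin, the alpha-parvin and PINCH1 transcripts fell. Among all genes tested, 15.0% were called lower. PARVA, alpha-parvin (chr11:12399110-12556903, plus strand), had 87.3 and 79.8 CPM with PELP1 siRNA, against 127 and 126 CPM with control siRNA (log2 fold change -0.60, SE 0.073, adjusted p = 1.34e-06). Its groups were well apart. LIMS1, PINCH1, had 152 and 144 CPM against 165 and 178 CPM, a small difference (log2 fold change -0.22, adjusted p = 0.0200, and 0.147 or 0.449 without control library 1 or 2 and 0.0676 with total count scaling). PARVB had 60.6 and 65.4 CPM against 65.4 and 67.5 CPM and was not called (log2 fold change -0.077, interval -0.24 to 0.086). The scaffold ILK had 233 and 249.6 CPM against 246 and 253 CPM (log2 fold change -0.047, interval -0.18 to 0.087, and 0.0011 with total count scaling). ILK shares 78.5% of its exon bases with other genes, mainly TAF10 on the opposite strand, so its counts are uncertain. LIMS2 had at most 4 counts and was not tested.

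Of the 5 signalling proteins, PTK2 was called higher, CAV1 lower, and PTK2B, PXN and BCAR1 were not called. The shares over all genes tested were 12.9% higher and 15.0% lower. PTK2, focal adhesion kinase, had 221 and 206 CPM in PELP1 siRNA libraries, against 173 and 177 CPM in control libraries. Both PELP1 siRNA values were higher (log2 fold change 0.28, SE 0.066, adjusted p = 0.00226), and the adjusted p was 0.157 or 0.0898 without control library 1 or 2. CAV1, the coat protein of caveolae, also found at adhesions (chr7:116165048-116201233, plus strand), had 627 and 590.1 CPM with PELP1 siRNA, against 971 and 1036 CPM with control siRNA. It fell with no overlap (log2 fold change -0.72, SE 0.062, adjusted p = 6.90e-09).

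Paxillin (PXN) was not called, at 424 and 451 CPM against 471 and 465 CPM (log2 fold change -0.098, adjusted p = 0.251, or 0.00205 with PELP1 siRNA library 2 left out). BCAR1, p130Cas, had 91.7 and 95.1 CPM against 107 and 103 CPM (log2 fold change -0.16, adjusted p = 0.0917, or 0.0368 and 0.00318 with PELP1 siRNA library 1 or 2 left out). The FAK relative PTK2B was low, at 10.1 and 10.0 CPM against 11.3 and 13.0 CPM (log2 fold change -0.28, adjusted p = 0.105). PXN shares 27.2% of its exon bases with other genes, mainly its own antisense transcript.

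Proteins on the actin side of the adhesion all had lower values in both PELP1 siRNA libraries than in either control library, and 4 of 5 were called. Of all genes tested, 32.3% lay below in this way and 15.0% were called lower. TNS1, tensin 1, had 16.1 and 15.5 CPM against 23.3 and 22.7 CPM (log2 fold change -0.54, SE 0.10, adjusted p = 3.53e-04). ZYX, zyxin, a protein that gathers at adhesions under tension, had 215 and 243 CPM against 307 and 309 CPM (log2 fold change -0.43, adjusted p = 4.19e-05). The alpha-actinins fell by similar small amounts. ACTN4 shares 14.2% of its exon bases with other genes, mainly CAPN12 on the opposite strand. ACTN1 had 366 and 376 CPM with PELP1 siRNA and 443 and 444 CPM with control siRNA (log2 fold change -0.26, adjusted p = 0.00243, and 0.128 or 0.130 without control library 1 or 2). ACTN4 had 559 and 596 CPM against 687 and 691 CPM (log2 fold change -0.25, adjusted p = 0.00284, and 0.123 or 0.131 without control library 1 or 2). TNS3 had 61.2 and 57.6 CPM against 63.8 and 65.3 CPM and was not called (log2 fold change -0.12, adjusted p = 0.278, or 0.0369 with PELP1 siRNA library 1 left out).

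By level per kilobase of exon, CAV1, FLNA, ITGA3 and ITGA5 were the 4 highest of the 41 genes in control libraries. CAV1 stood at 157 ± 6.78 CPM per kilobase with PELP1 siRNA and 259.5 ± 11.9 with control siRNA (SD, n = 2 each). FLNA stood at 195 ± 5.95 and 243 ± 7.94, ITGA3 at 180.0 ± 5.23 and 224 ± 0.24, and ITGA5 at 168 ± 5.29 and 175 ± 0.63. CAV1 was the lowest of the 4 in PELP1 siRNA libraries, less than 2 of its SD below ITGA5, and in control libraries it lay less than 2 of its SD above FLNA. With the longest transcript as the length, ITGA3 was the highest in both groups. Of all beta chains together, ITGB1 made up 57.6% and 52.4% of the summed level per kilobase in PELP1 siRNA libraries, against 45.8% and 45.7% in control libraries, while ITGB3 made up 16.5% and 16.0% against 34.9% and 34.0%. With the longest transcript as the length, ITGB3 made up 9.17% and 9.16% of all beta chains against 21.4% and 20.9%. ITGB1 then made up 72.4% and 67.7% with PELP1 siRNA against 63.5% and 63.2% with control siRNA. Of all alpha chains, ITGA3 and ITGA5 held the largest shares in every library: ITGA3 44.7% and 45.3% with PELP1 siRNA against 47.7% and 47.9% with control siRNA, and ITGA5 41.6% and 42.4% against 37.3% and 37.3%. ITGB3 was number 11 of 41 in control libraries, next to PXN above and VCL below.

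The words shown earlier stood in an annotated 3' UTR of 13 of the 35 genes tested (37.1%) and of 29.6% of the 12254 genes tested that have one. Of the 13 carriers, 8 were lower and 5 were not called: beside ITGB3, CAV1, PARVA, ZYX and TNS1 the lower ones were ITGA11, ITGB1 and LIMS1. The uncalled carriers were ITGA4, ITGA6 and VCL, with values above 0, and TLN2 and PARVB, with values below it. Over all genes tested, 859 of 3627 carriers were lower and 381 higher. Of the 1891 lower genes with an annotated 3' UTR, 45.4% carried a word, against 50.0% of the lower integrin and adhesion genes. Of all genes tested, carriers or not, 15.0% were lower and 12.9% higher. Of the 22 genes without a word, 8 were lower, 4 higher and 10 not called. The median log2 fold change was -0.29 for carriers and -0.14 for the rest, against -0.061 and 0.028 over all genes tested. ITGA2, ITGA10 and TLN1 hold neither word. Carriers also had longer 3' UTRs, with a median of 4261 bases against 1497 for the rest. In LIMS1 and ITGA4 the site lies outside the longest annotated 3' UTR, and with the longest 3' UTR alone 11 genes carry a word.

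**Figure D4:**
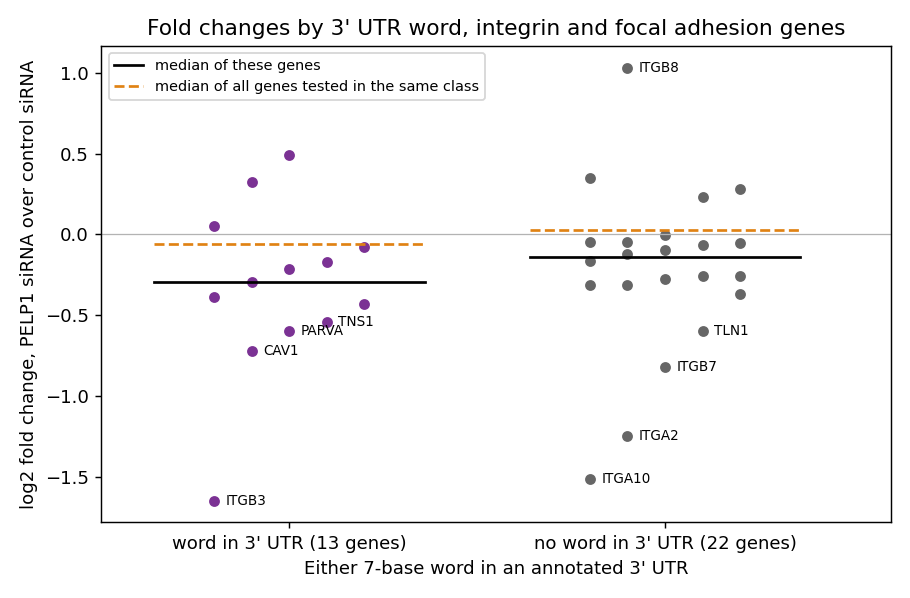
Log2 fold change of PELP1 siRNA over control siRNA (y axis) for the 13 genes with either word in a 3' UTR (left) and the 22 without (right), 1 point per gene, with genes past 0.5 in either direction named. Solid lines are medians of these genes (-0.29 and -0.14) and dashed lines medians of all genes tested with and without a word (-0.061 and 0.028). ITGB3 is the lowest point on the left, ITGA10 and ITGA2 the lowest on the right.

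Other adhesion proteins, a list of 54 written out for this comparison, were lower in 21 of 49 tested and higher in 3. The shares over all genes tested were 15.0% lower and 12.9% higher. Their median log2 fold change was -0.16. The lowest adjusted p belonged to FLNC, a muscle filamin, which fell to 699.6 and 743 CPM against 1216 and 1174 CPM (log2 fold change -0.73, adjusted p = 4.01e-09). LPXN, leupaxin of the paxillin family, fell to 54.1 and 53.0 CPM against 97.2 and 100.7 CPM (log2 fold change -0.89, adjusted p = 6.05e-09). The kinase PAK1 rose to 59.1 and 57.5 CPM against 43.9 and 43.5 CPM (log2 fold change 0.42, adjusted p = 5.25e-04). YES1, a SRC family kinase, had 169.9 and 143 CPM against 128 and 133 CPM (log2 fold change 0.26, adjusted p = 0.0136, and 0.259 or 0.125 without control library 1 or 2), and the fold change was 0.13 without PELP1 siRNA library 1. With control library 1 or 2 left out, fewer genes of the list were called in each direction, as was so over all genes tested.

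Of 38 integrin ligands, 27 were tested, 8 were lower and 2 higher, against 15.0% lower and 12.9% higher over all genes tested. Their median log2 fold change was -0.11. The lowest adjusted p of this list belonged to FBN1 and SPP1. FBN1, fibrillin 1, had 151 and 155 CPM in PELP1 siRNA libraries, against 509 and 486 CPM in control libraries (log2 fold change -1.70, adjusted p = 8.22e-15). SPP1, osteopontin, had 222 and 220.3 CPM against 401 and 425 CPM (log2 fold change -0.90, adjusted p = 2.39e-10). COL1A2, a chain of type I collagen, rose to 969.8 and 1022 CPM against 736 and 727 CPM (log2 fold change 0.44, adjusted p = 5.55e-06). ADAM9, a metalloprotease whose disintegrin domain binds integrins, had 912 and 809 CPM against 754 and 774 CPM. It rose by 0.17 on the log2 scale (adjusted p = 0.0491), a call lost without control library 1 (0.458) or 2 (0.300), without PELP1 siRNA library 1 (0.0570) and with DESeq2 (0.0842). Without control library 1 fewer of the ligands were called in each direction, as was so over all genes tested. Vitronectin (VTN) held at most 7 counts in a library and was not tested.

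Another 5 integrin subunits lie outside the 41 genes, and 3 of them were tested. ITGAX, an alpha chain of myeloid cells, was called lower and is named after its values were seen. It had 6.90 and 7.01 CPM in PELP1 siRNA libraries, against 10.8 and 11.7 CPM in control libraries (log2 fold change -0.70, adjusted p = 4.22e-04). Its partner ITGB2 had at most 1 count in a library.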

How the data were processed

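The deposited tables hold whole read counts for each gene symbol, 1 table a library, not normalized by the authors. Per the submitters' processing notes, CASAVA 1.8.2, TopHat2 2.0.8b and HTSeq were used with hg19 (GRCh37), and per the labels' protocols reads were single-end and 50 bases long. No source used here gives the strand setting, the HTSeq version or the annotation release, and reads over more than 1 annotated gene stand in the counter's ambiguous line (326111 to 384157 per library) and in no gene. The last 5 lines of each column are totals of the counter, 36.0 to 37.6% of its counts, and did not enter any fit.

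The comparison of 2 PELP1 siRNA with 2 control siRNA libraries tested the 13234 of 23228 symbols kept by filterByExpr of edgeR (at least 10 counts, 15 in total). Counts were TMM-scaled and fitted by edgeR 4.0.16 (R 4.3.3; robust quasi-likelihood, siRNA as the single factor), and p-values were adjusted over all genes tested. Standard errors are the log2 fold change over the root of F. At this depth the spread between libraries (biological coefficient of variation 5.23%) sets the precision of abundant genes and counting that of genes with few reads. The fit was also tested on simulated data. Exon lengths, shared exon bases and 3' UTRs come from GENCODE v44lift37, in which all 41 genes matched by symbol.

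The genes, lists, words and tests were chosen with earlier results of these data known. Library values are given in full for called genes past 0.5 on the log2 scale and for ITGB1, ITGAV, ITGA5 and PTK2. In practice they are given for every tested gene but ITGA6 and ITGB7, which have counts. Each other list is represented by the 2 lower and the 2 higher genes of smallest adjusted p. Protein sequences of the integrin tails were planned and are not used here. Alternatives were other scalings and filters, a fit that is not robust, DESeq2 1.42.0, limma-voom (3.58.1), a replicate block, leaving out each library, and other gene lengths and 3' UTRs.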

Additional observations from a re-analysis of the deposited data

How the results depend on the processing

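Under the 9 settings that keep all libraries, 301 log2 fold changes of the 35 genes kept their direction and side of the threshold, 3 lost the call, 6 gained it and 3 changed sign. With 1 library left out 106 did so, 19 lost the call, 10 gained it and 5 changed sign. The sign changes were all of uncalled genes: FERMT2 was 0.047 with total counts, 0.0078 with upper quartile scaling, and from -0.103 to 0.104 with 1 library left out. ILK was 0.0011 with total counts and from -0.092 to 0.0045 with 1 library left out. ITGA1 ranged from -0.13 to 0.037 and VCL from -0.0077 to 0.12 with 1 library left out.

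With 1 library left out, where the lone library of a group takes its spread from the other group, 1 to 7 of these genes were higher and 9 to 20 lower. The lowest counts came without control library 1 (1 higher and 9 lower) and the highest without PELP1 siRNA library 2 (7 higher and 20 lower). The cause was not tested. The other adhesion proteins then gave 1 to 7 higher and 10 to 28 lower, and the integrin ligands 1 to 4 higher and 6 to 11 lower. Total count scaling gave 6 other adhesion proteins higher in place of 3, and moved the share of lower among all called genes to 41.3%, against 53.6%. Integrin ligands higher came to 1 in place of 2 with 5 CPM in 2 libraries, DESeq2, a fit that is not robust and the replicate block, each without ADAM9. With the longest 3' UTR alone 27.1% of all genes tested carry a word.

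The labels give no source for the replicate numbers, and deviations of same-numbered libraries correlated at -0.031 across genes. With the replicate block 5 of these genes were higher and 16 lower. Depth limits genes under about 10 counts, most of which were not tested. Those that reached the filter in some libraries only, such as ITGB7 in the control libraries, were tested.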
